A study of Mus musculus with 6 samples.

Results

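The Gimap genes encode the GTPases of the immunity-associated protein family. The members described here are the 8 genes Gimap1, Gimap3, Gimap4, Gimap5, Gimap6, Gimap7, Gimap8 and Gimap9, taken by symbol from the 23997 symbols of the deposited RNA sequencing table. All 8 passed the filter on low values, among 15662 genes tested. The table compares LSK cells, sorted from bone marrow as Lin-Sca-1+c-Kit+, a gate that holds hematopoietic stem cells and early multipotent progenitors (1 figure legend of the study gives the gate without Sca-1, and the sample labels were followed), between Mirc11-/- mice (3 libraries) and wildtype mice (3 libraries). Mirc11-/- mice carry a germline deletion of a miRNA cluster, from which miR-24-2, miR-27a and miR-23a are made, and no other agent or allele was used in either genotype. All mice were on the C57BL/6 background and 6 to 8 weeks of age, and each library was made from a separate RNA preparation of cells pooled from 3 to 4 mice. The p-values below therefore measure the spread between such pools, and all 6 libraries carry the same batch label. The deletion is present in every cell of the animal, so that the comparison does not separate effects inside LSK cells from effects of their surroundings.

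GIMAP proteins bind GTP through a shared AIG1-type domain, and most sit on intracellular membranes such as the lysosome, the endoplasmic reticulum, the Golgi apparatus or the outer mitochondrial membrane. They are best known in lymphocytes, where several of them are needed for the survival of resting T and B cells. Gimap5 is also required for the maintenance of hematopoietic stem cells in mice, where it has been linked to the survival protein Mcl1.

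The libraries held 15029379 to 17051541 reads in genes for Mirc11-/- and 15772826 to 16250826 for wildtype, and values are given as normalized counts, that is, reads after division by each library's size factor. The 4 precursor entries of the deleted locus had no read in any Mirc11-/- library, against 46 to 73 reads summed over the wildtype libraries, so that they were at least 15.3-fold to at least 24.3-fold lower (floor of 3 reads over the group). The gating marker Kit had 6644 to 9950 normalized counts in Mirc11-/- libraries and 8577 to 9416 in wildtype libraries. The T cell receptor component Cd3e was near background, with at most 2.01 normalized counts in any Mirc11-/- library and 0 in all wildtype libraries. The 3 Mirc11-/- libraries were not alike. On the first principal component of all tested genes, with 31.3% of the variance, libraries 1 and 2 stood at -54.6 and -25.5, whereas library 3 stood at 19.5, inside the wildtype range of 13.5 to 26.2. On the second component, however, library 3 stood at -35.8, next to library 2 at -32.5 and outside the wildtype range of -2.15 to 27.0, whereas library 1 stood within it. For the Gimap genes and each marker list, the median log2 fold change is therefore also given without library 1 and without library 3. In bulk RNA, fewer cells of a kind and less RNA per cell cannot be told apart.

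The miRNAs of the deleted cluster are shown because miRNAs act mostly through matches to their seed in the transcripts they repress. The mature sequences are from RefSeq (GRCm38.p6, plus strand), with the seed, bases 2 to 8, in capitals. They lie at chr8:84208563-84208583 for miR-23a-3p, chr8:84208727-84208747 for miR-27a-3p and chr8:84208875-84208896 for miR-24-3p. No 2 of the 3 share a seed. The paper also names a paralog gene cluster, which codes for a related form of each of these miRNAs and is not part of the deletion. Whether miRNAs with these seeds were absent from the cells with the deletion was not tested.
miR-23a-3p: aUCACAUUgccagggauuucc
miR-27a-3p: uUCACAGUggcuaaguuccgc
miR-24-3p: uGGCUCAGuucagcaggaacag

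Matches to these seeds were present in the 3′ untranslated region (UTR) of 4 of the 8 members. A match was either to bases 2 to 8, or to bases 2 to 7 followed by an A, in the longest annotated 3′ UTR of GENCODE (GRCm38). Of 13557 tested genes with an annotated 3′ UTR, 52.2% had a match for at least 1 of the 3 miRNAs, so the share among Gimap genes was close to that of genes in general. Gimap3 and Gimap5 each had 1 match for miR-24-3p, Gimap9 had 1 for miR-27a-3p, and Gimap6 had 1 for miR-23a-3p and 1 for miR-27a-3p. Gimap1, Gimap4, Gimap7 and Gimap8 had none. The matched letters are in capitals in the transcript sequences, which lie on chromosome 6 at 48764665 to 48764694 (minus strand) for Gimap3, 48753975 to 48754004 (plus) for Gimap5, 48702053 to 48702082 and 48702002 to 48702031 (minus) for Gimap6, and 48678552 to 48678581 (plus) for Gimap9.
Gimap3, miR-24-3p: acagttatgcgCTGAGCCcggcctgacacc
Gimap5, miR-24-3p: tcaagaatcacaTGAGCCAgaaagtctatg
Gimap6, miR-23a-3p: cagagggcatccATGTGAAccaagctggcc
Gimap6, miR-27a-3p: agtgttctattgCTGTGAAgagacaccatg
Gimap9, miR-27a-3p: gtaaagaggacACTGTGAccgttgtttcca

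The members lie together within 124 kb of mouse chromosome 6 (GRCm38, chr6:48647234-48770851). Along the chromosome they follow the order Gimap8, Gimap9, Gimap4, Gimap6, Gimap7, Gimap1, Gimap5 and Gimap3, with Gimap6 and Gimap3 on the minus strand and the others on the plus strand. Annotated transcripts overlap in part. Gimap1os, a noncoding gene, runs antisense to 2391 bases of Gimap1. Gm28053 spans Gimap7 and Gimap1 and 6448 bases of Gimap5 on their own strand. The library kit does not mark the strand, so reads of Gimap1 and Gimap1os cannot be told apart where these genes overlap. Neither Gimap1os nor Gm28053 was among the tested genes, and how reads shared with them were assigned was not tested. Gimap3 and Gimap5 are near-identical in places. Of the 37-base windows of the Gimap5 transcript, 14.7% also occurred in Gimap3, and 13.4% of those of Gimap3 occurred in Gimap5, whereas no other pair of members shared a window. The values of Gimap3 and Gimap5 are therefore uncertain to the extent that such reads were assigned to either gene.

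Per kilobase of transcript, with the longest transcript that has a RefSeq match, the family spanned a wide range of levels. Gimap6, which binds the autophagy protein Gabarapl2, was at the top with 1265 ± 533 normalized counts per kb in Mirc11-/- cells and 1844 ± 342 in wildtype cells (SD, n = 3 each, as for all values per kb). Gimap1, a membrane-anchored member needed by mature lymphocytes, came next, with 653 ± 227 per kb in Mirc11-/- and 720 ± 103 in wildtype cells. With the longer transcript of Gimap6 of 3179 bases in place of the one of 1594 bases, Gimap6 had 634 ± 267 and 925 ± 171 per kb in Mirc11-/- and wildtype cells. Compared within each library, Gimap6 was above Gimap1 in every library with the shorter length. With the longer one it was above Gimap1 in each wildtype library (819, 833 and 1122 against 664, 658 and 839 per kb). In Mirc11-/- libraries 1, 2 and 3 it then had 378, 614 and 911 per kb, against 426, 655 and 880 for Gimap1. Gimap9 had 291 ± 59.6 per kb in Mirc11-/- cells and 352 ± 23.8 in wildtype cells. Gimap8 (147 ± 55.0 in Mirc11-/-, 156 ± 46.4 in wildtype) and Gimap5 (133 ± 63.2 in Mirc11-/-, 154 ± 17.4 in wildtype) differed by less than their spread. Gimap7 had 61.0 ± 18.9 per kb in Mirc11-/- cells and 101 ± 18.5 in wildtype cells, and was below Gimap5 in every library of both genotypes. In Mirc11-/- libraries 1, 2 and 3 it had 44.7, 56.5 and 81.7 per kb, against 71.7, 129 and 198 for Gimap5. Gimap4 (19.6 ± 7.41 in Mirc11-/-, 20.6 ± 5.04 in wildtype) and Gimap3 (11.1 ± 3.95 in Mirc11-/-, 10.4 ± 2.57 in wildtype) were the least abundant. These last 2 rested on 14.2 to 50.3 normalized counts per library, and counting error alone gives Gimap3 a coefficient of variation of up to 25.8%.

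**Figure D1:**
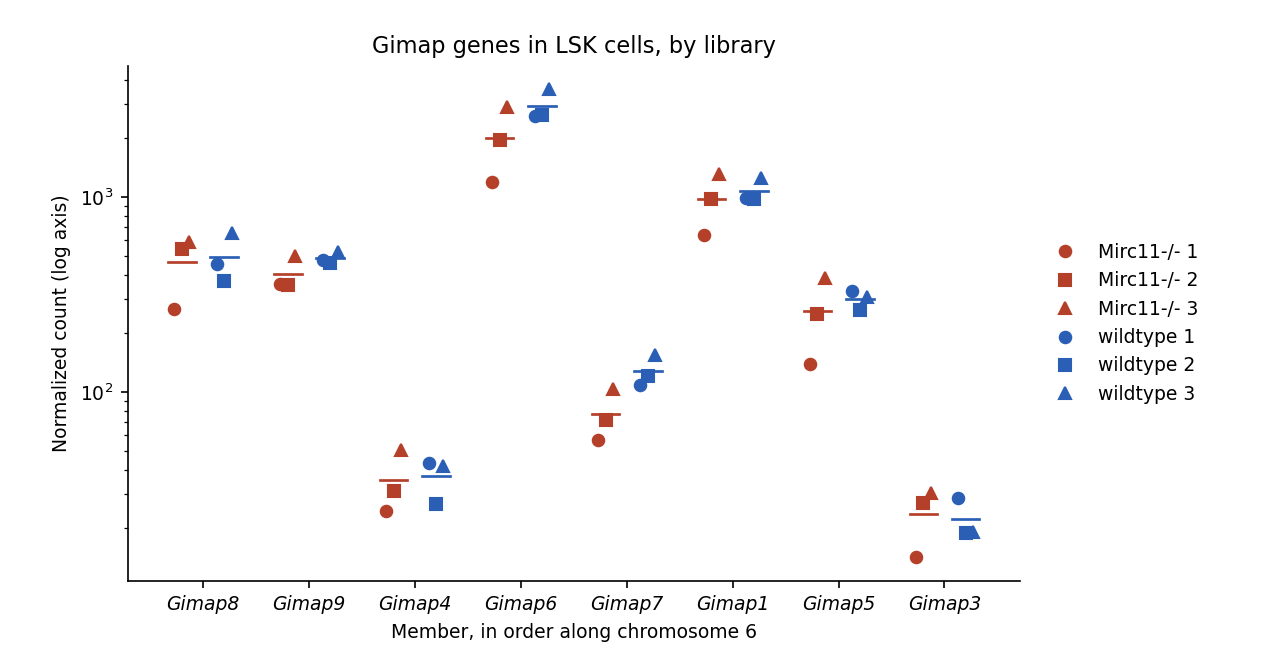
Normalized count of each Gimap gene (log axis) in each of the 3 Mirc11-/- libraries (red) and 3 wildtype libraries (blue), with horizontal bars at the group means, in order along chromosome 6. The groups are apart for Gimap7 alone, at 56.7 to 103.6 in Mirc11-/- and 108.5 to 154.0 in wildtype libraries, and Mirc11-/- library 1 is the lowest of all 6 for 7 of the 8 genes.

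No Gimap gene passed the genotype test, and the summed level of the family differed more between the Mirc11-/- libraries than between the genotypes. The 8 genes together had 2697, 4205 and 5866 normalized counts in Mirc11-/- libraries 1, 2 and 3, against 5034, 4893 and 6519 in wildtype libraries 1, 2 and 3. Library 1 of the Mirc11-/- genotype was the lowest of the 6, and library 3 was the second highest. The median log2 fold change of the members, Mirc11-/- over wildtype on the log2(value + 1) scale, was -0.24, beside a median of 0.0025 for all tested genes. With limma and Benjamini-Hochberg adjustment over all tested genes, 0 of 8 members had an adjusted p under 0.05, and 0.0319% of all tested genes did. The other tools also called 0 of 8, where edgeR called 0.0255% and DESeq2 0.924% of their tested genes. At an unadjusted p under 0.05, 1 member was lower with limma, the same gene with edgeR and DESeq2, beside 4.09% of all genes lower with limma. The sign was negative for 7 of 8 members, compared with 49.5% of all genes.

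Gimap7, whose human counterpart stimulates the GTPase activity of other family members, was the member with the smallest p. It had 56.7, 71.7 and 103.6 normalized counts in Mirc11-/- libraries 1, 2 and 3, against 108.5, 121.1 and 154.0 in wildtype libraries 1, 2 and 3. It was the only Gimap gene for which every Mirc11-/- library was below every wildtype library, a pattern found for 6.53% of all tested genes. The highest Mirc11-/- value and the lowest wildtype value were, however, close to each other. The means were 77.3 ± 24.0 in Mirc11-/- and 128 ± 23.5 in wildtype cells (SD, n = 3 each), with a log2 fold change of -0.75 (SE 0.26, 95% interval -1.33 to -0.16, limma adjusted p = 0.502). The unadjusted limma p for Gimap7 was 0.0178. Without Mirc11-/- library 1 its log2 fold change was -0.55 with an unadjusted p of 0.0544 (limma).

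Gimap6, the most abundant member, had 1202, 1951 and 2896 normalized counts in Mirc11-/- libraries 1, 2 and 3, against 2602, 2649 and 3568 in wildtype libraries. Mirc11-/- libraries 1 and 2 were below all wildtype libraries, and Mirc11-/- library 3 was above wildtype libraries 1 and 2. The means were 2016 ± 849 in Mirc11-/- and 2940 ± 544 in wildtype cells, and the log2 fold change was -0.62 (SE 0.27, 95% interval -1.24 to 0.0046, limma adjusted p = 0.599). This was also the gene whose call depended on 1 library. Without Mirc11-/- library 3 its log2 fold change was -0.92 with a limma adjusted p of 0.0489, and without Mirc11-/- library 1 it was -0.29 with an adjusted p of 0.799.

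Gimap9 varied least in both genotypes. It had 357.5, 353.1 and 498.1 normalized counts in Mirc11-/- libraries 1, 2 and 3, against 474.3, 461.5 and 523.9 in wildtype libraries. Mirc11-/- libraries 1 and 2 lay together below the wildtype range and library 3 lay within it, so that Gimap9 was the only member that was not lowest in Mirc11-/- library 1. Its log2 fold change was -0.29 (SE 0.15, 95% interval -0.63 to 0.05, limma adjusted p = 0.633).

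Gimap5, which supports the survival of T cells, natural killer cells and stem cells, had the widest relative spread over the Mirc11-/- libraries, with a coefficient of variation of 47.6% there and 11.3% over the wildtype libraries. It had 140.0, 251.3 and 386.4 normalized counts in Mirc11-/- libraries 1, 2 and 3, against 331.3, 264.0 and 306.0 in wildtype libraries. Library 3 of the Mirc11-/- genotype was the highest of all 6 and library 1 the lowest, and they differed 2.76-fold. The mean was 259 ± 123 in Mirc11-/- and 300 ± 34.0 in wildtype cells, with a log2 fold change of -0.32 (95% interval -1.03 to 0.39, limma adjusted p = 0.792).

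Gimap1 showed the same layout. It had 635.5, 977.2 and 1314 normalized counts in Mirc11-/- libraries 1, 2 and 3, against 992.1, 982.5 and 1252 in wildtype libraries, so the Mirc11-/- libraries held both the lowest and the highest value of the 6. Its log2 fold change was -0.19 (95% interval -0.72 to 0.33, limma adjusted p = 0.831). Gimap8, a large member with several GTPase domains, had 266.7, 542.1 and 587.6 normalized counts in Mirc11-/- libraries, against 453.6, 369.2 and 654.6 in wildtype libraries. Only Mirc11-/- library 1 was outside the wildtype range, and the log2 fold change was -0.12 (95% interval -0.82 to 0.57, limma adjusted p = 0.935).

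Gimap4, which accelerates T cell death in mice, had 24.6, 31.2 and 50.3 normalized counts in Mirc11-/- libraries 1, 2 and 3, against 43.4, 26.8 and 41.5 in wildtype libraries. Gimap3 had 14.2, 27.0 and 30.2 in Mirc11-/- libraries, against 28.6, 18.9 and 19.3 in wildtype libraries. For both genes the genotypes overlapped, and Mirc11-/- library 1 was the lowest and library 3 the highest of all 6 libraries. The log2 fold changes were -0.10 (95% interval -0.88 to 0.67, limma adjusted p = 0.952) for Gimap4 and 0.05 (95% interval -0.79 to 0.89, limma adjusted p = 0.982) for Gimap3. Intervals of this width do not show that the levels were equal in the genotypes.

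**Figure D2:**
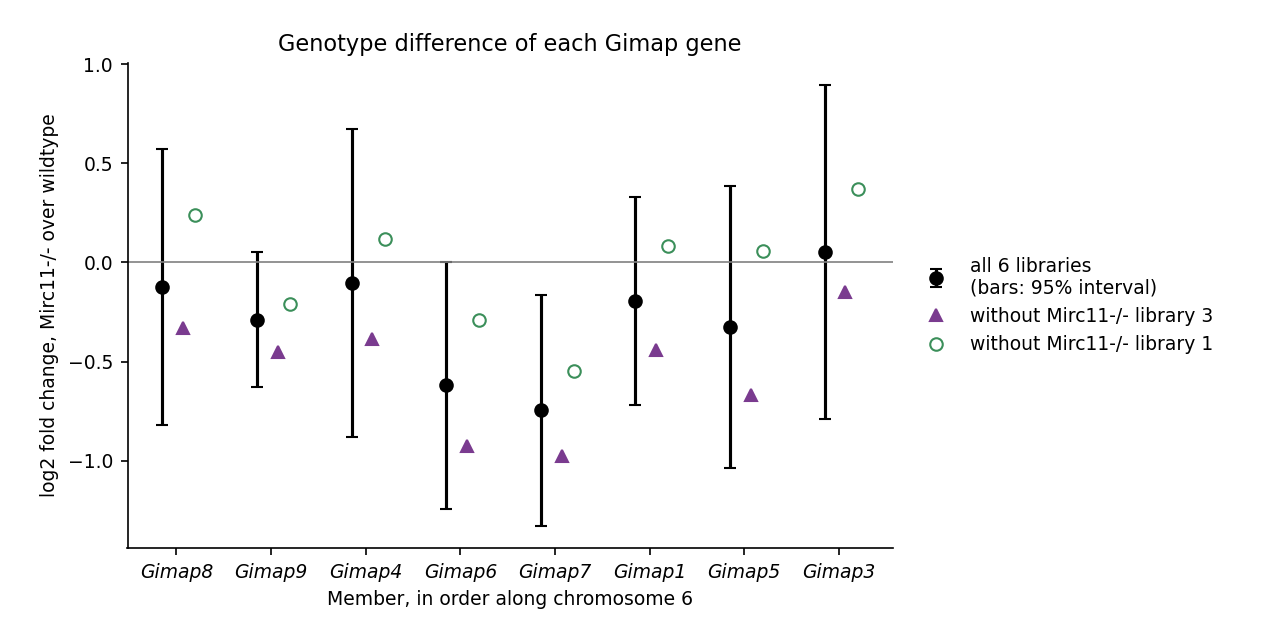
log2 fold change of each Gimap gene, Mirc11-/- over wildtype, from all 6 libraries (black circles, bars: 95% interval), without Mirc11-/- library 3 (triangles) and without Mirc11-/- library 1 (open circles). The interval excludes 0 for Gimap7 alone (-1.33 to -0.16), and leaving out library 3 moves every gene down while leaving out library 1 moves every gene up.

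The member values were spread more widely in Mirc11-/- cells. The coefficient of variation over the Mirc11-/- libraries was 20.5% to 47.6% across the 8 genes, and that over the wildtype libraries 6.77% to 29.8%. The share of all tested genes with such a difference was not computed. On their first principal component the Mirc11-/- libraries were also further apart, at -54.6 to 19.5 against 13.5 to 26.2 in wildtype. Mirc11-/- library 1 was the lowest of all 6 libraries for 7 of 8 members, compared with 24.4% of all tested genes. For 7 of 8 members the Mirc11-/- libraries stood in the order 1, 2, 3 from low to high, compared with 26.8% of all tested genes. Library 3 of the Mirc11-/- genotype was within or above the wildtype range for 7 of 8 members, which was close to the 75.9% of all tested genes. The value in library 3 was 1.39-fold (Gimap9) to 2.76-fold (Gimap5) that in library 1.

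The median over members followed these libraries. Without Mirc11-/- library 3 the median log2 fold change was -0.44, and without Mirc11-/- library 1 it was 0.07, with 3 of 8 members negative beside 49% of all genes. Without Mirc11-/- library 3, 1 member was lower at an adjusted p under 0.05 (limma, Gimap6), beside 1.11% of all tested genes. At an unadjusted p under 0.05, 5 members (Gimap1, Gimap5, Gimap6, Gimap7 and Gimap9) were lower, beside 10.2% of all genes. In that fit Gimap7 had a log2 fold change of -0.98 (limma adjusted p = 0.0618) and Gimap9 one of -0.45 (limma adjusted p = 0.0729). When limma instead weighted each library by its estimated quality, Gimap6, Gimap7 and Gimap9 were lower at adjusted p = 0.00718, 0.00194 and 0.00284, but 17.9% of all tested genes were also called lower and Mirc11-/- library 2 received a weight of 23.9, against 0.309 and 0.254 for Mirc11-/- libraries 1 and 3.

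The median of red cell precursor markers had the opposite sign to that of the Gimap genes in each Mirc11-/- library, but not in wildtype library 2. Relative to the wildtype mean, the median log2 level of 25 erythroid markers was 1.36, 1.27 and -0.11 in Mirc11-/- libraries 1, 2 and 3, and 0.45, -0.09 and -0.30 in wildtype libraries. The median of the Gimap genes on the same scale was -0.80, -0.24 and 0.30 in Mirc11-/- libraries and -0.06, -0.16 and 0.21 in wildtype libraries. Mirc11-/- library 1 was thus the lowest for Gimap genes and the highest for erythroid markers, and Mirc11-/- library 3 was within the wildtype range of the erythroid markers and above that of the Gimap genes. All 25 erythroid markers had a positive log2 fold change, beside 50.5% of all tested genes. Of these, 10 were at an unadjusted p under 0.05, beside 4.15% of all genes higher at that limit, and 0 at an adjusted p under 0.05 (limma). The alpha globin entries Hba-a1 and Hba-a2 hold identical values, so the 25 are not all separate measurements. An adjusted p under 0.05 (limma) was found for 20 of the 25 without Mirc11-/- library 3, beside 2.75% of all genes in either direction. The median log2 fold change was 0.81 with all libraries, 1.32 without Mirc11-/- library 3 and 0.60 without Mirc11-/- library 1. The sums were 31941 to 70733 normalized counts in Mirc11-/- and 29831 to 40893 in wildtype libraries. Among them was Hemgn, an erythroid nuclear protein, at a log2 fold change of 0.86 (limma adjusted p = 0.444). With the mean erythroid level of each library as a covariate in limma, the median log2 fold change of the Gimap genes was 0.25, 0 of 8 were called, and Gimap6 and Gimap7 had log2 fold changes of -0.04 and -0.30. Whether the share of erythroid cells has a part in the Gimap levels was not tested.

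**Figure D3:**
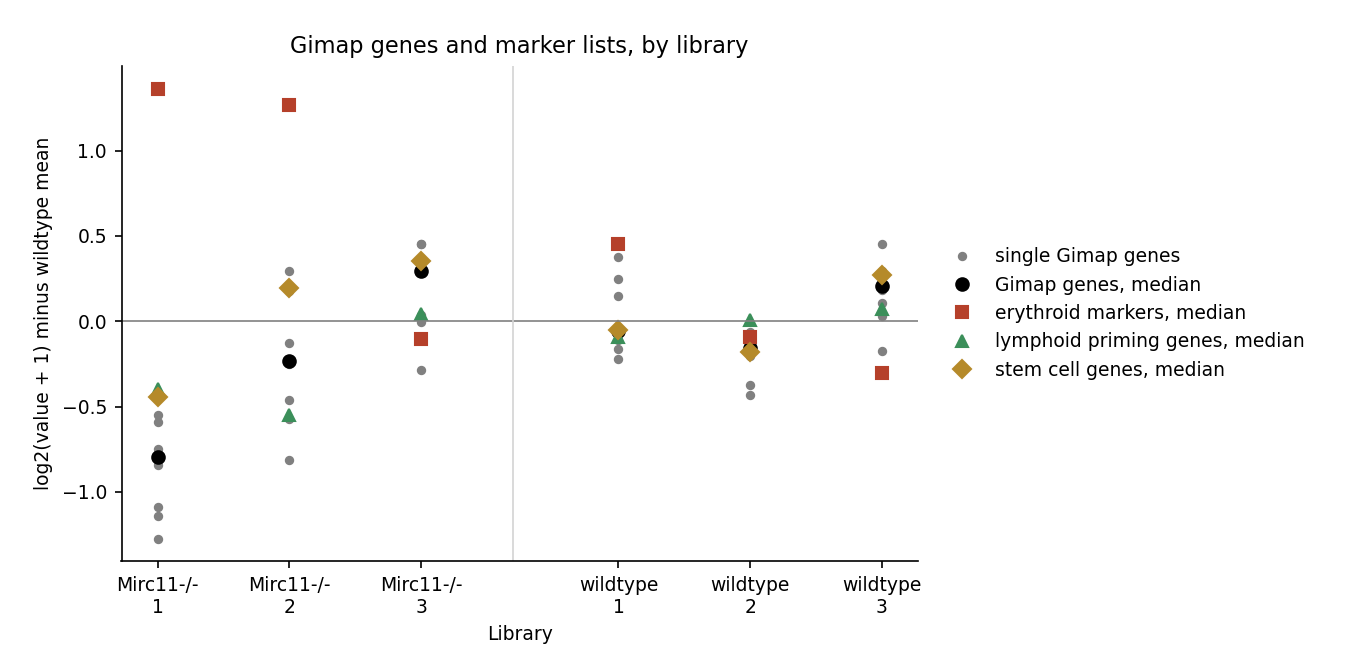
log2(value + 1) minus the wildtype mean in each library, for the single Gimap genes (grey) and for the medians of the Gimap genes, erythroid markers, lymphoid priming genes and stem cell genes. In Mirc11-/- library 1 the Gimap median is at -0.80 and the erythroid median at 1.36, and in Mirc11-/- library 3 they are at 0.30 and -0.11.

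Other cell types and programs that express Gimap genes were read from lists of markers, none of which had a member with an adjusted p under 0.05 in limma with all 6 libraries. The shares of all tested genes at an unadjusted p under 0.05, 4.09% lower and 4.15% higher, apply to each count that follows. Without Mirc11-/- library 3, 1.11% of all genes were called lower at an adjusted p under 0.05 (limma), and 2.75% in either direction. These shares apply to the genes called below without that library. Of 18 tested T and NK cell markers, an unadjusted p under 0.05 was reached by 0 in the higher direction and 1 in the lower, with a median log2 fold change of -0.31. That gene was Cd6, a T cell surface receptor, with 56.7, 46.7 and 78.5 normalized counts in Mirc11-/- libraries, against 110.4, 100.2 and 119.6 in wildtype libraries (log2 fold change -0.88, limma adjusted p = 0.431). The next was Nkg7, a cytotoxic granule gene, at -0.62 (limma adjusted p = 0.597). The summed list had 2899 to 4177 normalized counts in Mirc11-/- and 4287 to 4976 in wildtype libraries, of which Nkg7 alone made up 1164 to 2833 and 2406 to 2686. Cd6 and Lck were lower without Mirc11-/- library 3 (limma adjusted p = 0.0414 and 0.0356). The list median was -0.42 in that fit and -0.29 without Mirc11-/- library 1. Nkg7 was lower without Mirc11-/- library 1 (log2 fold change -1.01, limma adjusted p = 0.0185), beside 0.0894% of all genes called in either direction. No listed marker was at 0 in every library, but Cd3d, Cd3e, Cd3g, Cd8a, Cd8b1, Ncr1, Gzma and Prf1 were each at 0 in at least 1, and the part of T or NK cells in the Gimap values was not tested.

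Lymphoid priming genes, which multipotent progenitors switch on before they commit to the lymphoid lineage, were lower at an unadjusted p under 0.05 for 5 of 18 tested and higher for 0, with a median log2 fold change of -0.32. Among them was Cd53, a tetraspanin of leukocytes, at a log2 fold change of -0.36 (limma adjusted p = 0.419). The receptor Flt3 had 5614, 6643 and 10820 normalized counts in Mirc11-/- libraries, against 9449, 9855 and 12040 in wildtype libraries, and so was low in libraries 1 and 2 and within the wildtype range in library 3. In contrast to the Gimap genes, the median of the list was lowest in Mirc11-/- library 2 (-0.55), with -0.40 and 0.04 in Mirc11-/- libraries 1 and 3. Without Mirc11-/- library 3, 5 of the 18 genes were called lower (limma, Il12a, Dntt, Flt3, Satb1 and Il7r), beside 1.11% of all tested genes. The median was -0.48 in that fit, and without Mirc11-/- library 1 it was -0.27 and 0 were called.

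Among 24 stem cell genes, 3 had an unadjusted p under 0.05 and a higher level and 0 a lower one, with a median log2 fold change of 0.04. The smallest p were those of the transcription factors Tal1 (0.43) and Gfi1b (0.64), which also act in erythroid cells. The list stood at -0.44, 0.19 and 0.36 relative to the wildtype mean in Mirc11-/- libraries 1, 2 and 3, and at -0.05, -0.18 and 0.27 in wildtype libraries, which is the order of the Gimap genes within each genotype. The median was -0.18 without Mirc11-/- library 3, where Tal1 and Gfi1b were higher (limma adjusted p = 0.0365 and 0.0323), and without Mirc11-/- library 1 the median was 0.28. The 11 tested endothelial markers, of cells that also express Gimap genes, had sums of 2534, 3663 and 4648 normalized counts in Mirc11-/- libraries and 3885, 3505 and 4545 in wildtype libraries, again in that order. Of these, 1 had an unadjusted p under 0.05 and was lower and 0 were higher, with Egfl7, an endothelial secreted factor, at -0.42 and Plvap, a protein of endothelial fenestrae, at 0.42. Egfl7 was lower without Mirc11-/- library 3 (log2 fold change -0.65, limma adjusted p = 0.0127). The median of the endothelial list was -0.13 with all libraries, 0.12 without Mirc11-/- library 1 and -0.38 without Mirc11-/- library 3. The 14 B cell markers had a median of 0.62, with 1 at an unadjusted p under 0.05 (higher), and the smallest p were those of the pre-B receptor chain Igll1 at 1.71 and the complement receptor Cr2 at 1.29. Their sums of 678 to 1081 normalized counts in Mirc11-/- and 864 to 911 in wildtype libraries overlapped. The B cell median depended on the libraries, at 0.94 without Mirc11-/- library 1 and 0.19 without Mirc11-/- library 3.

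For other lineages, 18 neutrophil and monocyte markers included 3 with an unadjusted p under 0.05, 1 of them higher and 2 lower, with the transcriptional repressor Gfi1 at -0.30 and the granule protein Ltf at 1.16. Of 11 tested megakaryocyte markers 1 was higher and 1 lower, namely Vwf, the von Willebrand factor, at 0.50 and Selp, the platelet selectin, at -1.20. The median of the neutrophil and monocyte list was -0.02, with -0.19 without Mirc11-/- library 1 and 0.09 without Mirc11-/- library 3. That of the megakaryocyte list was 0.18, with 0.30 without Mirc11-/- library 1 and 0.13 without Mirc11-/- library 3.

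Known partners of the GIMAP proteins were next examined, namely 14 genes of the BCL2 family, of GABARAP-type autophagy proteins, of Gsk3 kinases and the chaperone Hspa8. An unadjusted p under 0.05 was found for 2 of the 14, both lower, beside 4.09% of all genes lower at that limit, and the median log2 fold change was -0.04. Mcl1, the survival protein linked to Gimap5 in stem cells, had 6663, 8429 and 7998 normalized counts in Mirc11-/- libraries 1, 2 and 3, against 10009, 10466 and 15489 in wildtype libraries. Every Mirc11-/- library was below every wildtype library, a pattern found for 6.53% of all tested genes. The log2 fold change of Mcl1 was -0.62 (limma adjusted p = 0.437). Bcl2, the antiapoptotic founder of its family, had 1434, 1378 and 1992 normalized counts in Mirc11-/- libraries, against 1969, 2508 and 2169 in wildtype libraries, so that Mirc11-/- library 3 and wildtype library 1 overlapped (log2 fold change -0.48, limma adjusted p = 0.477). Bcl2 was lower without Mirc11-/- library 3 (log2 fold change -0.65, limma adjusted p = 0.0222). Gabarapl2, the partner of Gimap6, had 249 to 274 normalized counts in Mirc11-/- libraries and 249 to 260 in wildtype libraries. Its log2 fold change was 0.06 (limma adjusted p = 0.912).

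The members moved together across libraries. Over the 6 libraries, the Pearson correlation of log2(value + 1) between 2 members was 0.23 (Gimap3 and Gimap7) to 0.95 (Gimap6 and Gimap7), with a median of 0.78 over 28 pairs. These are descriptions of n = 6 libraries that share their size factors and genotypes. The correlation of each member with the mean of the other members was highest for Gimap1 (0.964) and Gimap5 (0.961), followed by Gimap6 (0.931), Gimap8 (0.840), Gimap4 (0.837), Gimap9 (0.811) and Gimap7 (0.763), and was lowest for Gimap3 (0.617), the gene with the fewest reads. Gimap5 and Gimap3, which share sequence, had a correlation of 0.81.

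**Figure D4:**
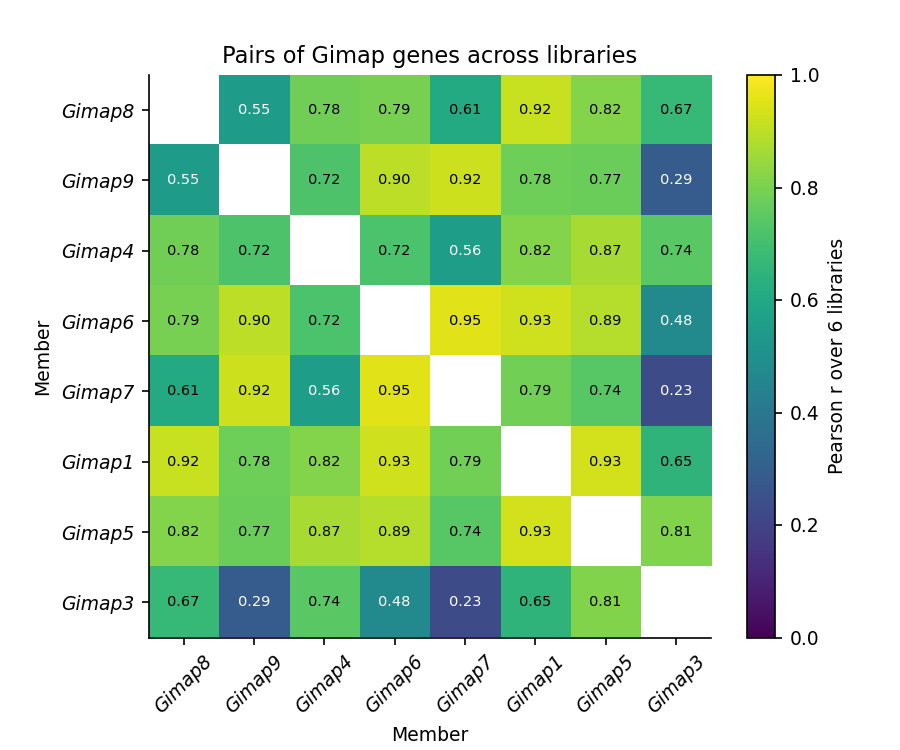
Pearson correlation over the 6 libraries between each pair of Gimap genes, in order along chromosome 6. Gimap6 and Gimap7 reach 0.95, and the lowest values are those of Gimap3 with Gimap7 (0.23) and Gimap9 (0.29).

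Such profiles were not particular to the family. Among 11397 other genes with a mean of at least 50 normalized counts, 734 (6.44%) had a correlation of 0.9 or more with the mean profile of the family, although the median was -0.07. The 5 most similar genes over the 6 libraries were AW112010 (0.996), Vdr (0.996), Ypel3 (0.995), Fam227a (0.992) and Phldb1 (0.991). AW112010, an interferon-inducible transcript of immune cells, had 215.6, 302.2 and 412.6 normalized counts in Mirc11-/- libraries 1, 2 and 3, against 374.7, 322.5 and 424.6 in wildtype libraries. Vdr, the vitamin D receptor, had 192.0, 253.4 and 307.9 in Mirc11-/- libraries, against 276.1, 263.0 and 303.0 in wildtype libraries. In both, Mirc11-/- library 1 was the lowest of the 6 libraries and the genotypes overlapped.

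The start sites were compared for short motifs of factors that act in blood cells, since the members lie together and varied together. Windows of 250 bases before to 50 bases after the start were taken from RefSeq (GRCm38.p6), 9 windows for the 8 genes because Gimap8 has 2. On both strands, the ETS core GGAAGT was present in 4 of 9 windows (Gimap9, Gimap6, Gimap1 and Gimap5), compared with 23.8% of 32851 promoter windows. The RUNX core TGTGGT was present in 3 of 9 (Gimap4, Gimap7 and Gimap1), compared with 16.8%. The GATA motif GATAAG was in 0 of 9 windows (7.44% of all) and the E-box CAGCTG in 0 of 9 (16.3% of all). None of these motifs overlapped another in the Gimap windows. A match says only that these letters are present.

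The 150 bases before the start are shown for Gimap6 and Gimap7, the pair with the highest correlation, and for Gimap1, the member closest to the rest of the family, with motif letters in capitals in either orientation. They lie at chr6:48708245-48708394 (minus strand) for Gimap6, chr6:48718471-48718620 (plus) for Gimap7 and chr6:48738897-48739046 (plus) for Gimap1. Gimap6 held an ETS core and Gimap7 and Gimap1 a RUNX core in reverse orientation in the bases shown, and the ETS core of Gimap1 lies just past its start, outside them.
Gimap6: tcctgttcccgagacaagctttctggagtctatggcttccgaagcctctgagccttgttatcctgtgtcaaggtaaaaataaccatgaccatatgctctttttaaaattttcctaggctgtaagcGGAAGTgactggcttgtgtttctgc
Gimap7: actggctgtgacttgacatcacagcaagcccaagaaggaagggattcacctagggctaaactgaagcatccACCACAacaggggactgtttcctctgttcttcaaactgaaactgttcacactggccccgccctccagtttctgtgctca
Gimap1: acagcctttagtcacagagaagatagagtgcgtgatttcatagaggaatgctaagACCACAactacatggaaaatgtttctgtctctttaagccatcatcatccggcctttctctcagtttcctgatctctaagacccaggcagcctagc

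The genes around the cluster were examined for the same comparison. Within 500 kb of either end, 16 other genes were tested, of which 12 were negative in log2 fold change, beside 49.5% of all genes, with a median of -0.19. None had an adjusted p under 0.05 (limma, lowest 0.566), and those with an unadjusted p under 0.05 were 2, both lower, beside 4.09% of all genes lower at that limit. Tmem176b, a membrane protein of myeloid and lymphoid cells, had 1972, 2489 and 3252 normalized counts in Mirc11-/- libraries 1, 2 and 3, against 3248, 3148 and 3609 in wildtype libraries. Library 3 was again the only Mirc11-/- library within the wildtype range, and the log2 fold change was -0.40. It was -0.59 without that library (limma adjusted p = 0.0323). A shorter list of neighbours by name, with 9 of 12 tested, is no separate measurement. It held Actr3b, which does not lie within 500 kb of the cluster, and its other tested genes are among the 16. Its median of -0.22 was the value of Aoc1, a gene at 0 to 5.92 normalized counts per library. The list included 1 gene with an unadjusted p under 0.05, Tmem176b, followed by Lrrc61 at -0.26. The other gene past that limit within 500 kb was Igf2bp3, a fetal RNA-binding protein, with 42.6, 40.5 and 39.2 normalized counts in Mirc11-/- libraries, against 72.0, 81.4 and 47.6 in wildtype libraries. All 3 Mirc11-/- libraries were below the wildtype range, a pattern found for 6.53% of all tested genes. They were alike, unlike those of the Gimap genes, and the log2 fold change was -0.67.

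**Figure D5:**
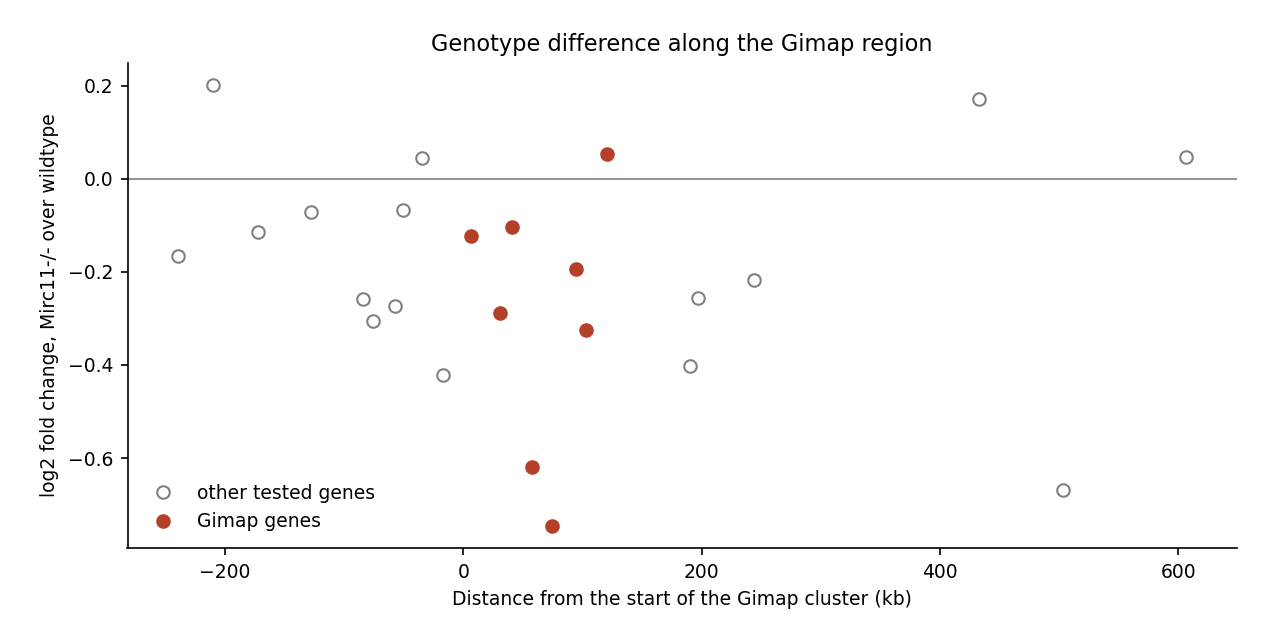
log2 fold change, Mirc11-/- over wildtype, of the 8 Gimap genes (filled) and of 16 other tested genes within 500 kb (open), by distance in kb of the gene's middle from the start of the Gimap cluster. Gimap7 (-0.75), Igf2bp3 (-0.67) and Gimap6 (-0.62) are the lowest, and 4 of the other genes are above 0.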

How the data were processed

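RNA was prepared from sorted LSK cells of 3 Mirc11-/- and 3 wildtype pools of mice, and poly(A)-selected paired-end libraries were sequenced. STAR and Cufflinks with the mm10 build are named, without versions, in the submitters' processing notes. The deposited table is named FPKM, but its values are a signal that the authors scaled per library: each column is whole reads divided by a size factor (100% of values whole within 0.01 of a read), not divided by gene length, and is called a normalized count here. The table has 23999 entries for 23997 symbols, and the entries of 2 duplicated symbols were summed. The 15662 genes whose mean value reached 1 were tested by limma 3.58.1 with trend on log2(value + 1) in R 4.3.3, with Benjamini-Hochberg adjustment. Alternatives were edgeR 4.0.16 and DESeq2 1.42.0 on the recovered reads, other scalings, filters and pseudocounts, array weights, a replicate block, an erythroid covariate and leaving out each library; for the lists and for the share of all gene pairs these were added after the data were seen. The supplementary methods name another build (not used here). Only the main limma fit was tested on simulated data, and the alternatives and other calculations were not. The members, gene lists and tests were chosen with earlier results of these data known. Named genes were all members, the 2 genes of smallest p in each list (some are not reported here), the 5 genes with the profile most like the family, the deleted locus and the miRNAs; Kit, Flt3, Gabarapl2, Igf2bp3, the globins, the T and NK markers at 0 and the genes called only without a library were added after their values were seen.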

Additional observations from a re-analysis of the deposited data

How the results depend on the processing

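The median log2 fold change of the Gimap genes (-0.24) kept its sign under all alternative scalings, filters, pseudocounts and tools, and turned to 0.25 with the erythroid covariate. Leaving out single libraries gave -0.44 (without Mirc11-/- replicate 3) to 0.07 (without Mirc11-/- replicate 1). The number of members called (0) was 3 with array weights and 0 to 1 without single libraries. Over all genes, 5 were called by limma, 5677 with array weights, 125 by DESeq2, 30 with the replicate block and 1 to 430 without single libraries. Array weights turned Gimap8 to 0.36, and their estimation did not converge. The erythroid covariate turned Gimap1 to 0.27, Gimap4 to 0.28, Gimap5 to 0.22 and Gimap8 to 0.33. Without single libraries, Gimap1 ranged from -0.44 to 0.084, Gimap3 from -0.15 to 0.37, Gimap4 from -0.38 to 0.12, Gimap5 from -0.67 to 0.059 and Gimap8 from -0.33 to 0.24, each with its lowest value without Mirc11-/- replicate 3 and its highest without Mirc11-/- replicate 1. Gimap3 was also at -0.07, -0.05 and -0.03 without Mirc11-/- replicate 2 and wildtype replicates 2 and 3, Gimap4 at 0.02 without wildtype replicate 1 and Gimap8 at 0.10 without wildtype replicate 3. None of these reversed values passed the test, and the cause was not tested. Libraries share replicate numbers, but the correlations of same-numbered deviations over genes were 0.07, -0.06 and 0.10, so the numbers were not taken to pair the libraries, and 0 members were called with the block. With 3 pools a genotype, the standard errors of the single members were 0.15 to 0.37 on the log2 scale. Gimap3 and Gimap4 are also limited by their counts, at 15 to 50 reads per library.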

Other observations

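The relative levels of the members were compared by their ratios within each library. Such a ratio cancels only what scales both members of the pair by the same fold. Of 28 pairs, 6 had ratios that did not overlap between the genotypes, beside 13.9% of all pairs of the 13201 genes with a mean of at least 10 normalized counts. The 28 pairs share genes. These pairs were picked by that pattern, and with 3 libraries against 3 the exact permutation test (two-sided) cannot go below p = 0.1, which all 6 had, with an adjusted value of 0.467 over the 28 pairs. The ratio of Gimap1 to Gimap6 was 0.529, 0.501 and 0.454 in Mirc11-/- libraries 1, 2 and 3, against 0.381, 0.371 and 0.351 in wildtype libraries. That of Gimap1 to Gimap7 was 11.2, 13.6 and 12.7 in Mirc11-/- libraries, against 9.15, 8.11 and 8.13 in wildtype libraries. The ratio of Gimap6 to Gimap8 was 4.51, 3.60 and 4.93 in Mirc11-/- libraries, against 5.74, 7.17 and 5.45 in wildtype libraries. The other 3 pairs were Gimap4 to Gimap7, Gimap7 to Gimap8 and Gimap7 to Gimap9. All 6 involved Gimap6 or Gimap7, the adjacent pair with the highest correlation. Gimap6 made up 46.8% ± 2.42 of the family's reads in Mirc11-/- and 53.5% ± 1.61 in wildtype cells, and Gimap1 made up 23.1% ± 0.599 in Mirc11-/- and 19.7% ± 0.437 in wildtype cells (SD, n = 3 each).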
